A study of Mus musculus with 18 samples.

Results

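Peptide-hormone enteroendocrine cells are the rare, hormone-secreting cells of the intestinal epithelium, and 390 of them were found among 25204 kept barcodes (1.55%) of Lgr5+ cells sorted from mouse ileum. A barcode was kept when it held 1000 to 18000 unique molecular identifiers (UMIs, 1 per captured RNA molecule), 200 to 4000 genes and less than 5% mitochondrial UMIs. Among the kept barcodes, a cell was taken as a member when the hormone genes Ghrl, Gcg, Cck, Gip, Sst, Pyy and Nts together made up at least 1% of its UMIs and Tph1, the first enzyme of serotonin synthesis, had 0 UMIs. Since these genes chose the cells, their levels are given below as a description, with no test.

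The study inactivated Setdb1, a methyltransferase that lays down H3K9me3, in intestinal stem cells that express Lgr5, and sorted GFP-positive cells for droplet-based single-cell RNA-seq that counts the 3′ ends of transcripts. Both groups were tamoxifen-treated C57Bl6 mice with the Lgr5-GFP-CreERT2 knock-in allele, aged 60 to 65 days, that had received 70 mg/kg tamoxifen in corn oil as 1 intraperitoneal injection 5 days earlier. Lgr5+WT had no further allele, and Lgr5+Setdb1KO also carried Setdb1lox/lox, whose exon 3 is removed by Cre. Each group had 2 libraries, described as independent biological replicates. Cre is expressed from the Lgr5 locus, and the knock-in allele is silenced at random in some crypts, so that neither GFP nor the deletion reaches all of the stem cells. Although GFP was the sorting gate, the files hold GFP transcripts in 1 of the 390 hormone cells (0.256%) and in 60 of all 25204 kept barcodes (0.238%), too few to check the gate in either. The study reports GFP mRNA in most of the cells of this sort, which the counts in these files do not show. The reason was not tested, and the study's division of clusters by GFP could not be checked here. The study places an early endocrine cluster among its GFP-expressing cells and mature endocrine cells among those that passed the gate without GFP, so how many of the hormone cells in Lgr5+Setdb1KO had lost exon 3 is not known.

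Enteroendocrine cells arise from the stem cells at the crypt base through progenitors that transiently express Neurog3. The mature cells store hormone in dense-core vesicles, where granins such as Chga and Chgb pack it and the proteases and carboxypeptidase encoded by Pcsk1 and Cpe trim it, and they release it when receptors sense nutrients in the gut lumen. In the small intestine, ghrelin (Ghrl) stimulates appetite, cholecystokinin (Cck) empties the gallbladder, Gcg gives the glucagon-like peptides, Gip potentiates insulin release and somatostatin (Sst) inhibits neighbouring endocrine cells. Isl1, a LIM-homeodomain factor, is a known marker of the cells that make peptide hormones, while the serotonin-producing enterochromaffin cells make Tph1 and express Lmx1a.

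The proximal promoters of 3 of the hormone genes are shown because homeodomain factors (Pdx1, Hhex) differed in level between the cells led by these hormones, as described below, and many factors of that class bind a TAAT core. Each is the 250 bases before the transcription start in RefSeq (GRCm38.p6), read 5′ to 3′ on the strand of the gene. The capitals mark TAAT or its reverse complement ATTA, and in the Sst promoter also TGACGTCA, the cyclic AMP response element, which is its own reverse complement and did not overlap a TAAT there.
Gcg, chr2:62483654-62483903, minus strand: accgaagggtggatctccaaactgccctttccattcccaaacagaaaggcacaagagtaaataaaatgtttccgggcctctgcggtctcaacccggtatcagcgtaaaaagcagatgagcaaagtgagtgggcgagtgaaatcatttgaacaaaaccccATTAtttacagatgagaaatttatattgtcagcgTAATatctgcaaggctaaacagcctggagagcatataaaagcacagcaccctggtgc
Gip, chr11:96024295-96024544, plus strand: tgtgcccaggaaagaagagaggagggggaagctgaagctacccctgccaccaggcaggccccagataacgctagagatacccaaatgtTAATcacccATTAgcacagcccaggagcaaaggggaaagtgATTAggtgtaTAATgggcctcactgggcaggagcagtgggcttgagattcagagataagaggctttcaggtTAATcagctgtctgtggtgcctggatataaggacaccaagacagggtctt
Sst, chr16:23890845-23891094, minus strand: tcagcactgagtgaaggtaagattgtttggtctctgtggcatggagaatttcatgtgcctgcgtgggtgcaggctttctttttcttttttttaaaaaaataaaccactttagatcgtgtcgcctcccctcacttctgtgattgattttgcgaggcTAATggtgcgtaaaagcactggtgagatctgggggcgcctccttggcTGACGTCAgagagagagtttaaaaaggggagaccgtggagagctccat
The Gip window held 5 TAAT matches, the Gcg window 2 and the Sst and Nts windows 1 each, and none was found in the windows of Cck, Pyy or the 4 annotated starts of Ghrl. Beyond these genes, the windows of the 2 annotated starts of Tph1 held 0 and 3 matches, Iapp 5, Isl1 2 and Hhex 0. TAAT on either strand occurred in 18041 of all 32851 promoter windows of the same length (54.9%), and TGACGTCA in 508 of them (1.55%). These matches are letters in a window, and binding was not measured here.

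The label was checked against genes that the rule had not used. Isl1 (ENSMUSG00000042258, chr13:116298281-116309689, minus strand, GRCm38) had counts per 1000000 UMIs of the group (CPM) of 775 and 679 in the hormone cells of Lgr5+WT replicates 1 and 2, and 983 and 689 in those of Lgr5+Setdb1KO replicates 1 and 2. It was detected in 85.4% of the hormone cells, in 0.798% of the other kept barcodes and in 0.301% of the 332 Tph1-positive barcodes (at least 2 Tph1 UMIs and less than 1% hormone UMIs). The 4 values lay close together. Isl1 was enriched in the hormone cells but not confined to them, as 198 other barcodes also had a UMI of it, with 732 UMIs against 1311 in the hormone cells. The hormone cells were shallower than the kept barcodes as a whole, with median UMIs of 4232, 3270, 5621 and 2582 in the 4 libraries in the above order, against 7604, 6083, 9329 and 4687. The Tph1-positive barcodes were of similar depth, at 4337, 2965, 5014 and 2485 UMIs. Most defining markers of other lineages were lower in them. All 7 goblet, all 7 tuft and all 7 stem-cell markers and all 10 proliferation genes were lower than in the other kept barcodes in each of the 4 libraries, as were 6 of 7 Paneth and 4 of 7 enterocyte markers and 21.4% of all 20362 features with a UMI. Lgr5 itself had 4 UMIs in the 390 cells. Of the enterocyte markers, sucrase-isomaltase (Sis) was higher in the hormone cells in all 4 libraries, at a mean of 314 CPM against 75.5 CPM, and Rbp2 in 3 of them, at 1471 against 1032 CPM.

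The depth and the libraries bear on what follows. The libraries held 50722926 to 81876035 UMIs, of which the hormone cells gave 235992, 300352, 498693 and 629750. The lowest member held 1.01% hormone UMIs and the highest barcode outside 0.984%, with 33 members between 1 and 2% and 30 barcodes between 0.5 and 1% outside. Droplets with fewer than 100 UMIs, which hold free RNA, had 0.0731 to 0.162% hormone UMIs, and 79.1% of kept barcodes had no hormone UMI at all. No member barcode was shared between libraries. Lgr5+Setdb1KO replicate 2 stood apart in the marker genes of Paneth cells, the defensin-secreting cells of the crypt base. The 7 Paneth markers summed to 1746 and 2867 CPM in the hormone cells of Lgr5+WT and to 2290 and 28194 CPM in those of Lgr5+Setdb1KO. In this last library 4 of 188 hormone cells had at least 5% Paneth-marker UMIs (up to 55.4%, against up to 1.53% in the other 3 libraries) and a median of 9631 UMIs, compared with 2577 in its other members. Without these 4 cells the sum was 6320 CPM. The 7 goblet markers, of mucus-secreting cells, also stood apart in this library, with sums of 2233 and 5464 CPM in Lgr5+WT and 3006 and 15355 CPM in Lgr5+Setdb1KO, and 7977 CPM in the last without those 4 cells. A rebuilt doublet procedure marked 146 of the 188 members of this library, and 1, 9 and 2 members of the others. Of all kept barcodes it marked 1043 of 11418 in this library. In Lgr5+WT replicates 1 and 2 and Lgr5+Setdb1KO replicate 1 it marked 182 of 4764, 301 of 6133 and 67 of 2889. The marked cells were kept. Values without them are given for the share, for the leading hormones and hormone pairs over all libraries together, and for the genotype fits. The levels by leading hormone and the mix of leading hormones by library were not recomputed.

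Hormone cells took a larger share of the barcodes in Lgr5+Setdb1KO, although the exact permutation test used cannot reach 0.05 with 2 libraries a group. They were 48 of 4764 kept barcodes in Lgr5+WT replicate 1 (1.01%, exact 95% binomial interval 0.744 to 1.33%) and 72 of 6133 in replicate 2 (1.17%, 0.920 to 1.48%). In Lgr5+Setdb1KO they were 82 of 2889 (2.84%, 2.26 to 3.51%) and 188 of 11418 (1.65%, 1.42 to 1.90%). Both knockout libraries lay above both wild-type libraries, and the intervals cover counting error only.

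**Figure D1:**
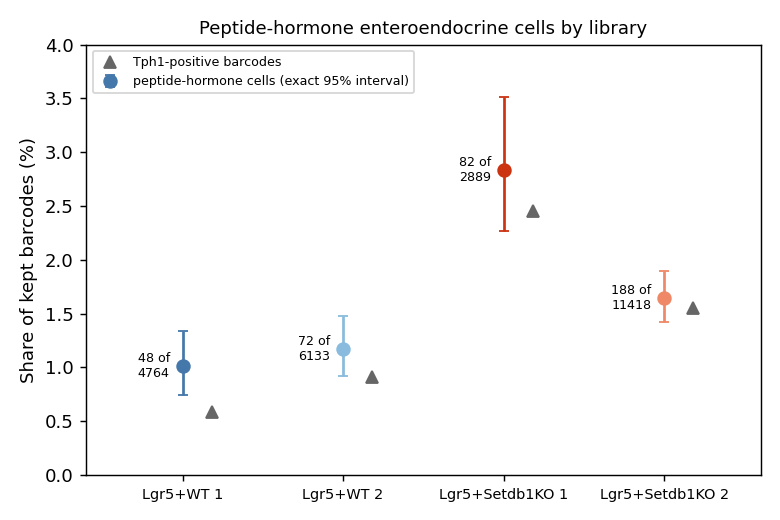
Share of kept barcodes in each Lgr5+ library that were peptide-hormone enteroendocrine cells (circles, with exact 95% binomial intervals and the counts beside them) or Tph1-positive (triangles), in percent. The hormone cells made up 1.01 and 1.17% in Lgr5+WT and 2.84 and 1.65% in Lgr5+Setdb1KO, and the Tph1-positive barcodes followed the same order.

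The mean share was 1.09% ± 0.118 (SD, n = 2) in Lgr5+WT and 2.24% ± 0.843 (SD, n = 2) in Lgr5+Setdb1KO. The difference of 1.15 percentage points had a two-sided exact permutation p of 0.333, the smallest that 2 against 2 libraries allow. The Tph1-positive barcodes were 0.588 and 0.913% in Lgr5+WT and 2.46 and 1.55% in Lgr5+Setdb1KO, so that both endocrine groups took a larger share of the knockout sort. With the marked doublets removed the hormone-cell share of Lgr5+Setdb1KO replicate 2 was 0.405%, below both wild-type libraries, and the difference was 0.567 points (exact permutation p = 1). Without Lgr5+Setdb1KO replicate 1 it was 0.556 points and without Lgr5+Setdb1KO replicate 2 it was 1.75 points. The knockout mean was still the higher without the marked doublets, at 1.62% against 1.05%, and it was the separation of the single libraries that turned on whether those barcodes of replicate 2 were counted.

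Most hormone cells were dominated by a single hormone. Gip led in 111 cells (28.5%), Cck in 90 (23.1%), Ghrl in 78 (20%), Sst in 52 (13.3%), Gcg in 48 (12.3%), Nts in 7 and Pyy in 2, with 2 ties. The leading hormone gave over 90% of a cell's selecting-hormone UMIs in 210 cells (53.8%). At the median it gave 100% in Ghrl-led cells, 98.1% in Gip-led and 94.0% in Sst-led cells, but 76.3% in Cck-led and 62.2% in Gcg-led cells. Without the marked doublets 232 cells remained, of which Ghrl led 26.7%, Gip 25.9%, Cck 21.6%, Gcg 12.9% and Sst 10.8%.

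Other cells combined hormones, in recurring pairs. In 142 cells (36.4%) at least 2 hormones each reached 1% of the UMIs, and in 37 cells at least 3 did. Of the 89 cells with Gcg at that level 73 also had Cck (82.0%), and these were 49.0% of the 149 cells with Cck. Pyy, the ileal satiety peptide, was with Gcg in 15 of its 17 cells. Cck was also found with Ghrl in 42 cells and with Gip in 20, and Ghrl was found with Gcg in 29. Sst was with Ghrl in 14 of its 52 cells and with Gip in 7, while no cell had Sst with Gcg or Sst with Cck at that level. Without the marked doublets 76 of 232 cells (32.8%) had at least 2 hormones at 1%, and 38 of 50 cells with Gcg also had Cck (76%).

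The mix of leading hormones was given for each library as a description. It was not recomputed by library without the marked doublets, which were 146 of the 188 members of Lgr5+Setdb1KO replicate 2. Gcg-led cells were 18.8 and 16.7% of the hormone cells in Lgr5+WT (9 of 48 and 12 of 72) and fewer in Lgr5+Setdb1KO (9 of 82, and 18 of 188 or 9.57%). Ghrl-led cells were 16.7 and 16.7% against 20.7 and 21.8%. The Gip-led share ran from 23.6 to 34.1%, the Cck-led share from 16.7 to 29.2% and the Sst-led share up to 15.4%, with the genotypes overlapping in all 3. As levels in the summed hormone cells, Ghrl was 22607 and 25390 CPM in Lgr5+WT and 46153 and 26414 CPM in Lgr5+Setdb1KO. Gip was 22802 and 20459 CPM against 58527 and 25591 CPM, and Sst 4996 and 6879 CPM against 9098 and 10012 CPM. The high Ghrl and Gip values came from Lgr5+Setdb1KO replicate 1, the deepest cells of the set. Gcg was 18268 and 20310 CPM against 19487 and 9688 CPM, Cck 20886 and 28460 CPM against 27891 and 20791 CPM, and Pyy 1114 and 2943 CPM against 4221 and 1156 CPM, in each case with overlap. Nts, the neurotensin gene, had 1119, 486, 0 and 1837 CPM and came from few cells.

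The cells led by different hormones also differed in other genes, shown in the heat map by leading hormone. As the cells were grouped by measured hormone, these are descriptions of 4 libraries summed, and the genes outside the fixed lists were chosen after their values were seen. Of 2352 named genes with at least 100 UMIs in the hormone cells, 40 (1.7%) were highest in Ghrl-led cells in all 4 libraries, 10 (0.425%) in Gcg-led, 6 (0.255%) in Cck-led, 30 (1.28%) in Gip-led and 43 (1.83%) in Sst-led cells. The classes were of unlike size. Sst-led cells, for example, held 152395 UMIs, from 6, 8, 9 and 29 cells in the 4 libraries, and Cck-led cells 416318 UMIs. The part of class size in these counts was not tested.

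**Figure D2:**
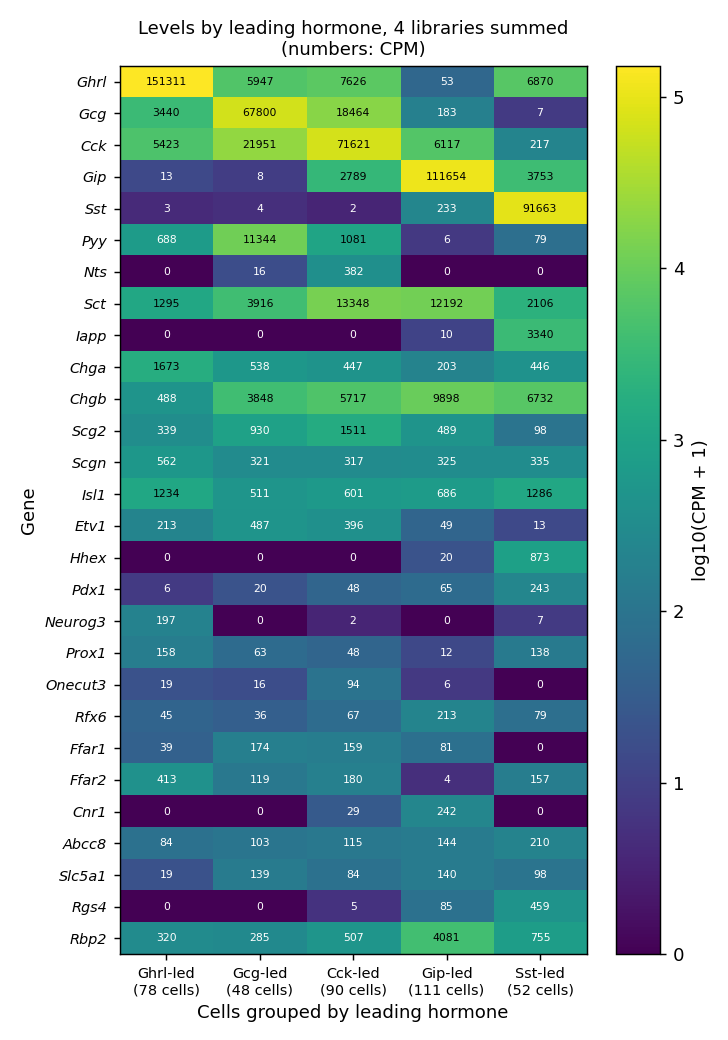
Levels of hormones, granins, transcription factors and receptors in the hormone cells grouped by leading hormone, 4 Lgr5+ libraries summed; colour is log10(CPM + 1) and the printed number is CPM. The Sst-led column stands out by Iapp at 3340 CPM and Hhex at 873 CPM, the Ghrl-led column by Neurog3 at 197 CPM and Chga at 1673 CPM.

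Ghrl-led cells had the gene for the enzyme that acylates ghrelin, Mboat4, at 468 CPM (400 to 565 CPM over the 4 libraries), while the next class reached 105 CPM. They also had Chga at 1673 CPM, with 203 to 538 CPM in the other classes, and Ffar2, a short-chain fatty acid receptor, at 413 CPM. Chgb went the other way, at 488 CPM in Ghrl-led cells and 3848 to 9898 CPM in the others. Neurog3, the progenitor factor, was 197 CPM in Ghrl-led cells (94.2 to 240 CPM over the libraries) and at most 6.56 CPM in any other class. It was found in 30.8% of Ghrl-led cells. Ooep, a gene best known from the oocyte, had 340 of its UMIs in Ghrl-led cells (1098 CPM), with 19.2 CPM in the next class. Serpina1c, Acsl1, a long-chain acyl-CoA synthetase, and Maged2 followed at 727, 727 and 1240 CPM.

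Gcg-led and Cck-led cells had the highest Etv1, Ffar1 and Scg2 of the 5 classes. Etv1, an ETS-family factor, was 487 and 396 CPM in them and 13.1 to 213 CPM elsewhere. The long-chain fatty acid receptor Ffar1 was 174 and 159 CPM, with 0 UMIs in Sst-led cells. Secretogranin II (Scg2) was 930 and 1511 CPM. They were set apart by Pyy, at 11344 CPM in Gcg-led and 1081 CPM in Cck-led cells, by secretin (Sct), at 3916 against 13348 CPM, and by Onecut3, at 15.8 against 93.7 CPM.

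Gip-led cells had the highest Fabp5, Rbp2, Cnr1 and Rfx6 of the 5 classes. The fatty acid-binding protein gene Fabp5 was 14756 CPM in them (10413 to 19810 CPM over the libraries), with 2412 CPM in the next class, and the cellular retinol-binding protein gene Rbp2 was 4081 CPM, with 755 CPM in the next. Fabp2, another fatty acid-binding protein gene, was lowest in Gip-led cells, at 274 CPM against 472 to 584 CPM elsewhere. The cannabinoid receptor gene Cnr1 was 242 CPM and detected in 56.8% of these cells, while it had no UMI in Ghrl-, Gcg- or Sst-led cells. Rfx6, an endocrine transcription factor, was 213 CPM, with 35.6 to 78.7 CPM elsewhere, and Pkib was 246 CPM. Sct was 12192 CPM with the libraries summed, near the 13348 CPM of Cck-led cells. By library it ran from 3810 to 17960 CPM in Gip-led and from 7950 to 17464.5 CPM in Cck-led cells. In the sums Chga was lowest here, at 203 CPM, and Chgb highest, at 9898 CPM. This did not hold in each library. In Lgr5+WT replicate 2 Chgb was 7878 CPM in Gip-led, 8808 CPM in Cck-led and 14868 CPM in Sst-led cells. In Lgr5+WT replicate 1 Chga was 281 CPM in Gip-led and 254 CPM in Cck-led cells. Summed over libraries, this class also carried the most Paneth RNA, with the 7 markers at 30615 CPM against 3963 to 4889 CPM in the other classes. That came from Lgr5+Setdb1KO replicate 2 (76122 CPM, with 2014 to 2807 CPM in the other 3 libraries), and without the Paneth-high cells, 2 of which were Gip-led, the sum was 3998 CPM, with Fabp5 at 15351 CPM and Rbp2 at 4256 CPM. The goblet markers were highest in Gcg-led cells, at 16855 CPM, and were 2722 CPM there without those cells. Ghrl-led cells then had the highest goblet sum, at 10908 CPM (3269 to 18135 CPM over the libraries).

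Sst-led cells had the highest Hhex, Pdx1 and Iapp of the 5 classes. Hhex, a homeodomain factor that somatostatin cells of the pancreas are known to need, was 873 CPM and found in 88.5% of them, and had 0 UMIs in Ghrl-, Gcg- and Cck-led cells. Pdx1, another homeodomain factor, was 243 CPM, with 6.46 to 65.0 CPM elsewhere. Ffar1 had no UMI in the 52 Sst-led cells. Amylin (Iapp), a peptide secreted beside insulin in the pancreas, was 3340 CPM in Sst-led cells (1731 to 4404 CPM) and 10.2 CPM in the next class, so that 509 of its 514 UMIs in the hormone cells came from them. Rgs4, a regulator of G-protein signalling, was 459 CPM, with 85.3 CPM in the next class. Isl1 was present in all 5 classes, at 511 CPM in Gcg-led and 1286 CPM in Sst-led cells.

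Against the other kept barcodes, the hormone cells were higher in nearly all listed genes of hormone packing, vesicle release and endocrine transcription. The comparison is the one the rule made, so it has no test, and 23% of 20362 features with a UMI were higher in the hormone cells in all 4 libraries. By that measure 24 of 26 listed enteroendocrine transcription factors, all 12 vesicle-release genes, 10 of 12 granin and prohormone-processing genes, all 8 pan-enteroendocrine genes and 13 of 18 receptors and nutrient sensors were higher. The transcription factors lower in all 4 libraries were Lmx1a, with 0 UMIs in the hormone cells, and Mnx1. Scg2 had the highest ratio among the 1010 genes that met the level limits, at 1312 times its mean CPM in the other barcodes, followed by Iapp at 1069, the retinol-binding protein gene Rbp4 at 808, Etv1 at 736 and Ffar1 at 699 times. Behind them came genes that included Sphkap, Hhex, Gnai1, Abcc8, Scgn, Pkib, Cpe, Isl1 and Slc8a1, from 468 down to 163 times. Abcc8, the sulfonylurea receptor subunit of the ATP-sensitive potassium channel, was 169, 117, 134 and 102 CPM in the 4 libraries and its channel partner Kcnj11 was 21.2, 16.6, 48.1 and 11.1 CPM, in the order of both wild-type and then both knockout libraries. Abcc8 was detected in 37.2% of the hormone cells and 0.218% of the other barcodes.

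**Figure D3:**
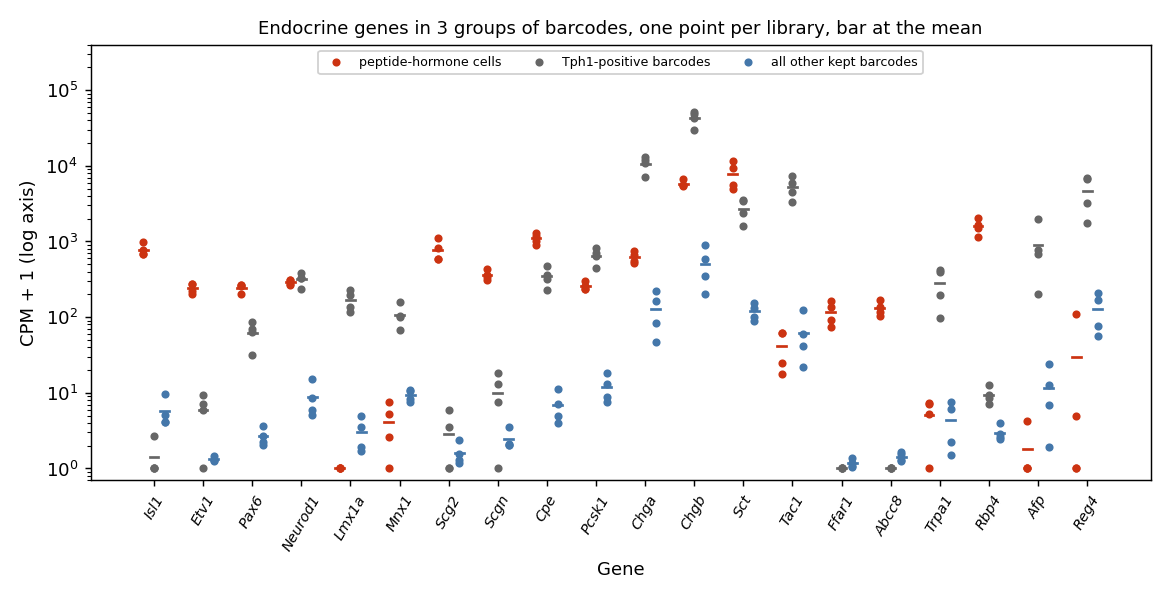
CPM + 1 (log axis) of endocrine genes in the peptide-hormone cells, the Tph1-positive barcodes and all other kept barcodes, which here include the Tph1-positive ones, with 1 point per Lgr5+ library and a bar at the mean. Isl1, Scg2, Ffar1 and Rbp4 were high in the peptide-hormone cells and at most 11.6 CPM in Tph1-positive barcodes, while Lmx1a, Tac1, Trpa1, Afp and Reg4 were higher in Tph1-positive barcodes. Of these Tac1, at 16.9 to 60.2 CPM, was also counted in the hormone cells of each library.

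The hormone cells and the Tph1-positive barcodes overlapped in some endocrine transcription factors and differed in others. Neurod1, which acts after Neurog3, was 264 to 310 CPM in the hormone cells and 232 to 388 CPM in Tph1-positive barcodes, with overlap, and Insm1 and Nkx2-2 overlapped likewise. Features higher in hormone cells in all 4 libraries were 7.96% of 15557, and 10.2% were lower. Of the 26 transcription factors 8 were higher than in Tph1-positive barcodes in all 4 libraries (among them Pax6, Isl1, Hhex, Onecut3, Etv1, Prox1 and Pdx1) and 8 were lower (Neurog3, Neurod2, Pax4, Myt1, Lmx1a, Fev, Mnx1 and Runx1t1). Isl1 had 1 UMI in the Tph1-positive barcodes against 1311 in the hormone cells, a ratio of the summed CPM of 1109 with an exact 95% interval of 199 to 43844 that covers counting error only. Abcc8, Mboat4 and Ffar1 had 0 UMIs in Tph1-positive barcodes, and with 3 counts over the group as the floor Abcc8 was at least 61.3, Mboat4 at least 55.0 and Ffar1 at least 54.2 times higher. Rbp4 and Fabp5 were 189 and 96.4 times higher by mean CPM. Scg2, with 4 UMIs in Tph1-positive barcodes, had a summed ratio of 264 (exact 95% interval 103 to 969.6), Iapp, with 2, of 217 (59.9 to 1800) and Etv1, with 6, of 54.7 (24.9 to 150.01). These intervals, and those for the other direction below, likewise cover counting error only. The genes were picked for their high ratios, so the intervals are no test.

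In the other direction, alpha-fetoprotein (Afp) led, with 1696 UMIs in Tph1-positive barcodes and 2 in the hormone cells, a summed ratio of 1002 (exact 95% interval 277 to 8283). Vcan, from 1 UMI in the hormone cells, had 174 (30.7 to 6909) and Tpbg, from 3, had 164 (55.8 to 799.9), while Reg4 and the substance P precursor gene Tac1 were 163 and 130 times higher by mean CPM. Lmx1a and Slc38a11, with 0 UMIs in the hormone cells, were at least 93.5 and 61.5 times higher in Tph1-positive barcodes, and Trpa1, an irritant-sensing channel, with 8 UMIs in the hormone cells, had a summed ratio of 69.7 (35.1 to 162). Ssbp2 and Mnx1, with 4 UMIs each, had 60.3 (23.2 to 223) and 47.0 (17.99 to 175). Granins were split as well. Chga was 559, 666, 750 and 519 CPM in the hormone cells against a mean of 10727 CPM, and Chgb was 5555, 6732, 5456 and 5534 CPM against 43055 CPM, both below each Tph1-positive library. Cpe, Pam, Scg3, Scg5, Scgn, Scg2 and Pcsk1n were above them in all 4 libraries. Of the receptors and nutrient sensors 12 of 18 were higher in the hormone cells, among them the bile acid receptor Gpbar1, the lipid receptors Gpr119 and Ffar4, and the glucose and peptide transporters Slc5a1 and Slc15a1. Ddc, which completes serotonin synthesis, was still 449, 343, 423 and 364 CPM in the hormone cells.

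To compare the hormone cells of the genotypes, their UMIs were summed per library and tested by edgeR's quasi-likelihood test. Setdb1, the targeted gene, was 8.47 and 9.99 CPM in Lgr5+WT and 8.02 and 6.35 CPM in Lgr5+Setdb1KO, from 13 UMIs in all. A 3′ tag lies outside the deleted exon 3, so this level checks neither the deletion nor the labels, and cells that never carried the deletion may be part of the sums. Of 5414 genes tested, 0 were higher (0%) and 0 lower (0%) in Setdb1-KO at a Benjamini-Hochberg adjusted p under 0.05, while 259 (4.78%) had an unadjusted p under 0.05, 137 of them higher and 122 lower. DESeq2 called 0 higher and 1 lower, with 43 genes at an unadjusted p under 0.05. In data simulated at this depth the edgeR test found 81.6% of genes changed by 2 on the log2 scale and 18.7% of those changed by 1. Changes near 2-fold were thus mostly not detectable there. The simulation gave every gene the same assumed spread between libraries. That spread was not estimated from these data, so the rates found need not hold for them. In all other kept barcodes 279 of 13542 genes (2.06%) were called. Those sums are far deeper and mix many cell types, so this count does not show that hormone cells changed less.

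None of the endocrine lists held a called gene. Of the 22 transcription factors tested 2 were higher and 0 lower at an unadjusted p under 0.05, with a median log2 difference of 0.12. For 10 granin and processing genes the counts were 1 and 0 (median 0.05), for 10 vesicle-release genes 0 and 0 (0.06) and for 10 receptors 1 and 2 (-0.05), beside a median near 0 over all genes. Of the 8 pan-enteroendocrine genes 2 were higher and 0 lower (0.21). Among the 4 other peptide genes tested 3 were higher and 0 lower (0.91), namely Sct, Iapp and Gal. Iapp was 178 and 246 CPM against 363 and 345 CPM (0.78, edgeR adjusted p = 0.928), and the galanin gene Gal, from 2, 3, 18 and 19 UMIs, 8.47 and 9.99 CPM against 36.1 and 30.2 CPM (1.84, edgeR adjusted p = 0.928). Within Sst-led cells, which held nearly all of its UMIs, Iapp was 1731 and 3961 CPM against 4404 and 3118 CPM, with overlap. Isl1 differed by 0.25 (SE 0.260, adjusted p = 0.995 by edgeR), and its genotypes overlapped. Sct, the secretin gene, was 5009 and 5573 CPM against 11446 and 9378 CPM, higher in both knockout libraries by 1.03 (SE 0.373), with an edgeR adjusted p of 0.977. Scg5, the chaperone of the protease PC2, was 216 and 256 CPM against 598 and 341 CPM (1.03, edgeR adjusted p = 0.928). Ffar1 was 136 and 163 CPM against 72.2 and 90.5 CPM (-0.81, edgeR adjusted p = 0.928). In the summed hormone cells none of Sct, Iapp, Gal, Scg5 and Ffar1 overlapped between genotypes, and none passed. Of all genes tested, 691 (12.8%) were higher without overlap and 1140 (21.1%) lower without overlap, so lack of overlap alone is common with 2 libraries a group.

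**Figure D4:**
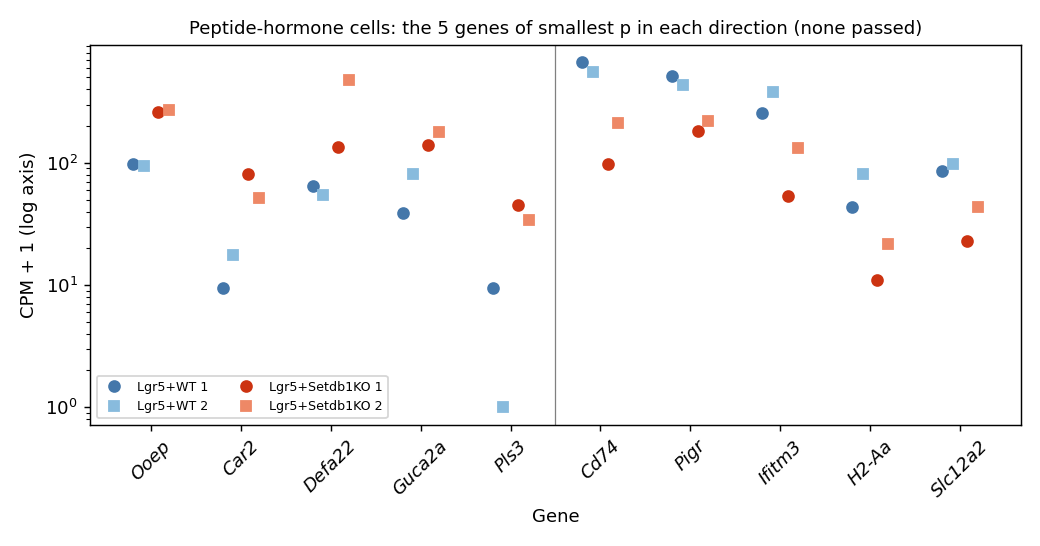
CPM + 1 (log axis) in the summed peptide-hormone cells of each Lgr5+ library for the 5 genes of smallest p among those higher (left of the line) and among those lower (right) in Setdb1-KO. Ooep, for example, sat at 97.5 and 93.2 CPM in Lgr5+WT and 261 and 270 CPM in Lgr5+Setdb1KO, and none of the 10 passed the adjusted threshold in edgeR. Cd74 passed it in DESeq2 (adjusted p = 0.0176).

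Since no gene passed in edgeR, the 5 of smallest edgeR p in each direction are described. Ooep (ENSMUSG00000032346, chr9:78376109-78378725, minus strand) was 97.5 and 93.2 CPM in Lgr5+WT and 261 and 270 CPM in Lgr5+Setdb1KO, from 23, 28, 130 and 170 UMIs. The replicates nearly coincided and the groups lay far apart, with a log2 difference of 1.54 (SE 0.229) and an edgeR adjusted p of 0.179. The adjusted p ranged from 4.74e-07 to 0.999 over 16 alternative settings, and the log2 difference from 1.37 to 2.83. Nearly all Ooep UMIs came from Ghrl-led cells. These were 16.7 and 16.7% of the hormone cells in Lgr5+WT and 20.7 and 21.8% in Lgr5+Setdb1KO, which also enters the summed level. Within them Ooep was 691 and 541 CPM in Lgr5+WT and 1172 and 1324 CPM in Lgr5+Setdb1KO, without overlap. In the other kept barcodes its log2 difference was 1.73 (edgeR adjusted p = 0.0984) at 2.33 to 17.3 CPM, and the difference between the effects was -0.13 (adjusted p = 1).

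Car2, a cytosolic carbonic anhydrase, was 8.47 and 16.6 CPM against 80.2 and 50.8 CPM in the hormone cells (log2 2.34, edgeR adjusted p = 0.807). It belonged to Gip-led cells, where it was 37.5 and 67.8 CPM against 227 and 137 CPM, and had no UMI in Ghrl-, Gcg- or Cck-led cells. Pls3, an actin-bundling protein gene, was 8.47 and 0 CPM against 44.1 and 33.3 CPM (edgeR adjusted p = 0.824). The Paneth defensin gene Defa22 was 63.6 and 53.3 CPM against 134 and 472 CPM (log2 2.48, edgeR adjusted p = 0.807), and in replicate 2 it was 312 CPM without the 4 Paneth-high cells. Guca2a, the guanylin gene, was 38.1 and 79.9 CPM against 140 and 179 CPM (log2 1.46, edgeR adjusted p = 0.807), and 110 CPM in replicate 2 without those 4 cells. The log2 difference of Guca2a ran from 1.03 to 2.19 when 1 library was left out. Paneth RNA moved with these: 5 of 7 Paneth markers were higher and 0 lower at an unadjusted p under 0.05, with a median log2 difference of 2.48. This rested on Lgr5+Setdb1KO replicate 2. Without that library 1 of 6 markers tested was higher and 1 lower at an unadjusted p under 0.05 (median -0.14), and Defa22 had a log2 difference of 1.22. Without the 4 Paneth-high cells 2 of 6 were higher and 0 lower (median 0.76). Lyz1 and Itln1, at 80.2 and 50.1 CPM in replicate 1 of Lgr5+Setdb1KO, lay below both wild-type libraries. Of the 7 goblet markers 2 were higher and 0 lower at an unadjusted p under 0.05 (median 1.13), and without Lgr5+Setdb1KO replicate 2 the counts were 1 and 3 (median -0.60). The Paneth markers summed to 4.00, 4.54, 7.77 and 7.30% of the UMIs in droplets of fewer than 100 UMIs, in the order of both wild-type and then both knockout libraries, and the part of such RNA in these differences was not tested.

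On the lower side stood immune genes and a stem-cell marker. Cd74, the MHC class II invariant chain, was 670 and 553 CPM in Lgr5+WT and 96.3 and 211 CPM in Lgr5+Setdb1KO, with no overlap. Its log2 difference was -1.90 (SE 0.341, edgeR adjusted p = 0.459, DESeq2 adjusted p = 0.0176), and in the other kept barcodes it was -1.95 (edgeR adjusted p = 0.0609). H2-Aa, an MHC class II chain, was 42.4 and 79.9 CPM against 10.0 and 20.6 CPM (log2 -1.90, edgeR adjusted p = 0.928). The epithelial immunoglobulin transporter Pigr was 508 and 429 CPM against 182 and 221 CPM (log2 -1.15, edgeR adjusted p = 0.769). Ifitm3, an interferon-inducible membrane protein gene, was 254 and 376 CPM against 52.1 and 132 CPM (log2 -1.69, edgeR adjusted p = 0.807). Slc12a2, a chloride cotransporter gene and stem-cell marker, was 84.7 and 96.6 CPM against 22.1 and 42.9 CPM (log2 -1.38, edgeR adjusted p = 0.928). These 4 did not overlap between genotypes either, and they had been chosen by smallest p. When 1 library was left out, the log2 difference ran from -2.64 to -1.41 for Cd74, from -2.60 to -1.29 for H2-Aa, from -2.59 to -1.16 for Ifitm3 and from -2.02 to -0.97 for Slc12a2, each the largest in size without Lgr5+Setdb1KO replicate 2. Of 5 stem markers tested 3 were lower and of 4 MHC class II genes 2 were lower at an unadjusted p under 0.05, with medians of -1.38 and -1.36. The share over all genes was 122 of 5414. The 2 MHC class II genes are Cd74 and H2-Aa, and Slc12a2 is among the 3 stem markers. These counts thus hold genes already picked by smallest p. The stem markers summed to 915 and 1465 CPM against 162 and 654 CPM in the hormone cells, and in the other barcodes they were 3773 and 3385 CPM against 2229 and 1827 CPM. The MHC class II genes summed to 903 and 792 CPM against 180 and 340 CPM in the hormone cells and to 2460 and 1570 CPM against 311 and 706 CPM in the others. Both lists were thus lower in Setdb1-KO in the other barcodes as well, and the part of free RNA from other cells was not tested.

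The genotype difference in hormone cells was then set against that in all other kept barcodes of the same libraries, in 1 model with library as a term. It was not the same for 26 of 13199 genes (0.197%), 7 with a higher and 19 with a lower log2 difference in the hormone cells, and 581 genes had an unadjusted p under 0.05. The count and the genes turned on single libraries. It was 114 genes without Lgr5+Setdb1KO replicate 2, 20 of them among the 26, 53 (19 shared) without Lgr5+Setdb1KO replicate 1, 17 (11 shared) without Lgr5+WT replicate 1 and 30 (14 shared) without Lgr5+WT replicate 2. Without the marked doublets 28 genes were called, 11 of them among the 26. Sst and Nts, which the rule used, are among the 26 and are not read.

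**Figure D5:**
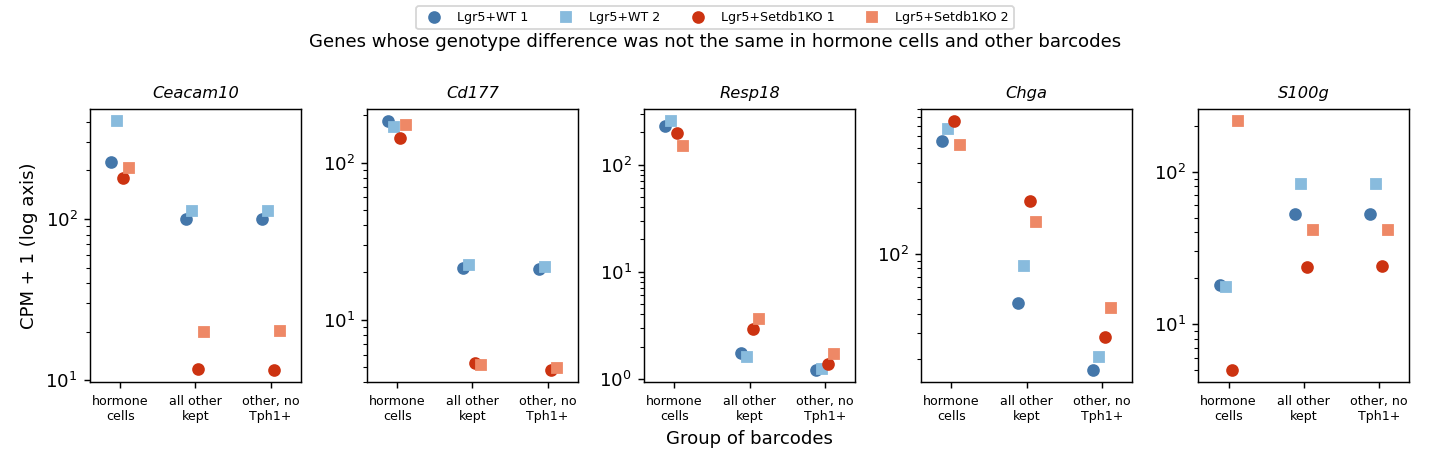
CPM + 1 (log axes of differing range) of the 5 genes with the smallest adjusted p for a genotype difference that was not the same in hormone cells and other barcodes, in the hormone cells, in all other kept barcodes and in the latter without Tph1-positive barcodes; 1 point per Lgr5+ library. Ceacam10 and Cd177 were lower in both knockout libraries in the other barcodes, and the genotypes lay closer together in the hormone cells.

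Ceacam10 and Cd177 fell in the other barcodes of Setdb1-KO (log2 -2.76 and -2.28, edgeR adjusted p = 0.00691 and 0.000441) and did not pass in the hormone cells (-0.66 and -0.08, edgeR adjusted p = 0.987 and 0.995). Ceacam10, of the carcinoembryonic antigen family, was 225 and 403 CPM in the hormone cells of Lgr5+WT and 178 and 206 CPM in those of Lgr5+Setdb1KO, with both knockout libraries below both wild-type ones by less than the latter were apart. In the other barcodes it was 98.7 and 111 CPM against 10.7 and 19.0 CPM, and the difference between the effects was 2.22 on the log2 scale (SE 0.25, edgeR adjusted p = 1.60e-07). Cd177, a surface glycoprotein gene of neutrophils, was 182 and 166 CPM against 142 and 171 CPM in the hormone cells, with overlap, and 20.4 and 21.2 CPM against 4.29 and 4.14 CPM in the others (2.24, SE 0.259, edgeR adjusted p = 1.93e-07). Both genes are on chromosome 7 and are next to each other among protein-coding genes, Cd177 at chr7:24743983-24760311 on the minus strand and Ceacam10 at chr7:24777206-24784657 on the plus strand (GENCODE M21, GRCm38). Within the hormone cells both were highest in Ghrl-led cells when the 4 libraries were summed, at 769 and 472 CPM. Ghrl-led cells were 16.7 and 16.7% of the hormone cells in Lgr5+WT and 20.7 and 21.8% in Lgr5+Setdb1KO, which also enters the summed levels. Ceacam10 was lower in both knockout libraries in Cck-led cells (203 and 154 CPM against 66.1 and 106 CPM). It was likewise lower in Gip-led (37.5 and 136 against 11.3 and 10.6 CPM) and Sst-led cells (165 and 271 against 99.0 and 101 CPM). These rested on 50, 16 and 20 UMIs. In Ghrl-led and Gcg-led cells its genotypes overlapped. Cd177 was lower without overlap in Gip-led and Sst-led cells and overlapped in the other classes.

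Of the 19 genes with a lower effect in hormone cells, out of 13199 tested, 8 were on the fixed endocrine lists. These were Chga, Chgb, Pcsk1n, Scg5 and Cpe of 12 granin and processing genes, and Fev and Neurod1 of 26 transcription factors. Gfra3 was of 8 pan-enteroendocrine genes, and the 12 vesicle-release genes and 18 receptors and nutrient sensors gave none. Chga was 559 and 666 CPM against 750 and 519 CPM in the hormone cells and 46.4 and 81.7 CPM against 224 and 160 CPM in the other barcodes, a difference between the effects of -1.51 (SE 0.244, edgeR adjusted p = 4.36e-04). Resp18, an endocrine vesicle gene, was 229 and 253 CPM against 195 and 148 CPM in the hormone cells and 0.733 and 0.607 CPM against 1.92 and 2.60 CPM elsewhere (-2.24, SE 0.332, edgeR adjusted p = 7.68e-05). Tph1-positive barcodes, which also carry these genes, were part of the comparison group and were a larger share of the kept barcodes in the knockout libraries. When they were left out, 6 of 13132 genes (0.0457%) were called, Ceacam10, Cd177, Nts, S100g, Aplp1 and Adh1, all among the 26. Chga then had -0.86 (edgeR adjusted p = 0.668) and Resp18 -1.82 (edgeR adjusted p = 0.193). Without the marked doublets Chga had 0.000403 (edgeR adjusted p = 1), Resp18 -1.74 (edgeR adjusted p = 0.0542), S100g 1.21 (edgeR adjusted p = 1), Ceacam10 2.71 and Cd177 2.61 (edgeR adjusted p = 5.06e-13 and 1.20e-09). S100g, a calcium-binding protein gene, was 16.9, 16.6, 4.01 and 213 CPM in the hormone cells. Only Lgr5+Setdb1KO replicate 2 was high, and the difference between the effects went from 3.68 (edgeR adjusted p = 8.67e-04) to -0.42 (edgeR adjusted p = 1) without that library.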

How the data were processed

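Single-cell RNA-seq of the 4 Lgr5+ libraries was the data used for the comparisons, and 4 lineage-traced libraries that met the same cell rule are given under other observations. The authors deposited unfiltered gene-by-barcode UMI counts for each library (32286 features). The submitters' processing notes name Cell Ranger 6.1.1, Seurat 5.0.3 and the mm10 build, while the file headers name Cell Ranger without that version. No normalized values were used. The 10 other samples of the series (total RNA-seq, H3K9me3 and scATAC-seq) were not analysed here.

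Groups came from the sample labels. The members and the gene lists were chosen with earlier results of these data known. UMIs were summed per library over the hormone cells, the Tph1-positive barcodes and all other kept barcodes (members left out), and CPM is 1 gene's UMIs per 1000000 UMIs of that sum. Genotypes were compared in edgeR 4.0.16 (R 4.3.3; filterByExpr, TMM, glmQLFit and glmQLFTest, Benjamini-Hochberg adjustment over all genes tested, threshold 0.05). The difference between the effects was a cell group by genotype term with library as a term. DESeq2 1.42.0 was an alternative. Shares were compared by a two-sided exact permutation test over the 4 libraries. Whether p-values cover animal-to-animal variation depends on the stated independence of the replicates. The gene-wise test was tested on simulated counts of 5355 genes drawn from the real means and depths, with the same assumed spread for every gene. In these, 5 of 5177 unchanged genes were called, 71 of 87 genes changed by 2 on the log2 scale were recovered and 17 of 91 changed by 1.

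Named genes were those of the 18 fixed lists, the 10 with the smallest adjusted p in each direction with an adjusted p under 0.05 and a log2 difference of at least 1 (if none, the 5 with the smallest p), the 5 with the smallest adjusted p for the difference between effects, the 15 with the highest ratio over the other kept barcodes and the 10 in each direction against Tph1-positive barcodes, at 50 CPM or more in each library of the higher group, all without unnamed gene models and rule genes. 1 gene that the lists and this rule name is not reported here. Doublets were kept. The study's DoubletFinder settings (pN 0.25, pK 0.09, 10 principal components) were used in a rebuilt procedure as an alternative, which marked 1593 of the kept barcodes. Its rate of 0.8% per 1000 barcodes, which fixes how many are marked, was assumed here, as the study does not state a rate. Other alternatives changed the cell thresholds, normalization, low-count filter and libraries. Promoter windows were matched by gene symbol to RefSeq.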

Additional observations from a re-analysis of the deposited data

Results flagged for a closer look

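The genotype difference in hormone cells departed from that in the other kept barcodes of the same libraries for 5 named genes, by a test of the difference itself (edgeR, adjusted over 13199 genes). Those other barcodes mix many cell types. Their stem markers summed to 3773 and 3385 CPM in Lgr5+WT and 2229 and 1827 CPM in Lgr5+Setdb1KO. Their enterocyte markers summed to 1950 and 2847 CPM against 6758 and 3414 CPM. The part of such shifts in the differences was not tested. Ceacam10 differed by 2.22 and its chromosomal neighbour Cd177 by 2.24 on the log2 scale, and both kept their direction and an adjusted p under 0.05 in all 9 alternatives, between 1.92 and 2.71 and between 2.04 and 2.61. Without the Tph1-positive barcodes in the comparison group Ceacam10 was 2.21 and Cd177 2.32 (edgeR adjusted p = 3.48e-07 for both). Ceacam10 was also lower in both knockout libraries within Cck-, Gip- and Sst-led cells, from 50, 16 and 20 UMIs. Its genotypes overlapped in Ghrl- and Gcg-led cells. Resp18 differed by -2.24 and Chga by -1.51, and neither passed without the Tph1-positive barcodes, where Resp18 kept most of its size at -1.82 (edgeR adjusted p = 0.193) and Chga had -0.86 (edgeR adjusted p = 0.668). S100g differed by 3.68, and this rested on Lgr5+Setdb1KO replicate 2, where it had 213 CPM in the hormone cells as against 4.01 to 16.9 CPM in the other 3 libraries.

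In the lineage-traced libraries, which the comparisons above did not use, barcodes meeting the same rule averaged 0.311% in the Setdb1-KO libraries (5 of 2312 and 32 of 7873) and 0.108% in the wild-type libraries (9 of 5356 and 1 of 2124). The lineage-traced knockout mean was the higher, and the difference was not tested.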

How the results depend on the processing

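Within the hormone cells 0 genes were called higher and 0 lower. Both counts stayed at 0 with a 2% hormone threshold, a minimum of 2000 UMIs, a 10% mitochondrial limit, no condition on Tph1, marked doublets removed, DESeq2 size factors in edgeR, and, chosen after seeing the data, the rule genes left out of library sizes and the 4 Paneth-high cells left out. A 0.5% threshold gave 1 higher (Ooep), no low-count filter 41 higher and 11 lower of 14496 genes, and DESeq2 1 lower (Cd74). Leaving out a library, where the lone sample left is assumed to vary like the other group, gave 0 to 51 higher and 0 to 51 lower: 51 and 11 without Lgr5+Setdb1KO replicate 1, 24 and 51 without Lgr5+Setdb1KO replicate 2, 0 and 1 without Lgr5+WT replicate 1, and 1 and 0 without Lgr5+WT replicate 2. The replicate block gave 0 and 0 calls (226 genes at an unadjusted p under 0.05). The labels give both groups replicates 1 and 2. Over 5414 genes, the difference of replicate 1 from replicate 2 correlated at -0.04 between the groups. That value cannot settle whether same-numbered libraries share a preparation, which was not tested. Median UMIs of the kept barcodes were higher in replicate 1 in both groups, at 7604 against 6083 in Lgr5+WT and 9329 against 4687 in Lgr5+Setdb1KO.

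For the difference between effects (7 higher, 19 lower), no low-count filter gave 18 higher, and leaving out a library gave 9 to 35 higher and 7 to 103 lower. These were 35 higher without Lgr5+Setdb1KO replicate 1, 11 higher and 103 lower without Lgr5+Setdb1KO replicate 2, and 7 lower without Lgr5+WT replicate 1. Leaving out Tph1-positive barcodes gave 4 higher and 2 lower, leaving out the Paneth-high cells 4 higher, and leaving out marked doublets 18 higher and 10 lower, all chosen after seeing the data. Without marked doublets Chga was 0.000403. S100g ran from -0.42 (without Lgr5+Setdb1KO replicate 2) to 4.50 (without Lgr5+Setdb1KO replicate 1). Chga did not pass without Lgr5+WT replicate 1 (edgeR adjusted p = 0.401). The cause of these changes was not tested, beyond fewer samples or more genes tested. Over the named genes 168 values under alternatives stayed on the same side of the threshold, 27 newly passed, 5 no longer passed and 2 turned.

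The share difference of 1.15 points ran from 0.556 to 1.75 points when a library was left out and from 0.567 to 1.18 points otherwise, without reaching an exact permutation p of 0.05, which 4 libraries do not allow. The planned gene-wise test in lineage-traced cells, with its alternatives, was not run because 3 of the 4 libraries held fewer than 10 such cells. Depth is a limit, with 235992 to 629750 UMIs a library in the hormone cells.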

Other observations

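Among the lineage-traced libraries, sorted for GFP from mice that carry the nTnG reporter in addition, 47 barcodes met the rule of the hormone cells, with a median of 2050 UMIs. Ghrl led in 17, Gcg in 10, Gip in 10, Cck in 4, Sst in 4 and Pyy in 2. Summed over the 4 libraries (127365 UMIs), Isl1 was 722 CPM in them and 1.36 CPM in the other kept barcodes, and Scg2 322 and 0.337 CPM, from 92 and 41 UMIs. Lmx1a had 0 UMIs. The 15 genes with the highest ratio over the other barcodes in the Lgr5+ sort were all above the other barcodes here too, as were 38.6% of 18799 features.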
